A study of Mus musculus with 33 samples.

Results

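The growth phase of the hair cycle was compared between a natural cycle and a cycle started by depilation, as a difference of 2 changes on the log2 scale. The natural change was P29 minus the mean of P23 and P25, the depilation change was the mean of D8 and D12 minus D3, and the quantity of interest was the natural change minus the depilation change, where P is the postnatal day and D the day after depilation. A positive difference means that a transcript went up more, or down less, in the natural cycle. The comparison used 13 of the 33 arrays of the series. They were 3 arrays at P29 (late anagen, 1 male and 2 female mice), 4 at P23 and P25 (early anagen, 3 male and 1 female), 4 at D8 and D12 (late anagen, 4 female) and 2 at D3 (early anagen, 2 female). Each array held RNA of whole upper back skin from 1 wild-type C57BL/6 mouse, so replicates were separate animals. Depilated mice had a wax and rosin mixture applied at 7 weeks, with all follicles at rest, and were at least 50 days old, whereas the mice of the natural cycle were 23 to 29 days old and were not depilated. The stages of the depilation cycle are those of the design text, while the labels of the single samples call all days after depilation early anagen, so samples were grouped by day. Age, depilation and cycle therefore cannot be told apart, and sex only in part.

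In young mice the follicles of the back cycle in step, growing in anagen, regressing in catagen and resting in telogen. At the onset of anagen the hair germ at the base of the resting follicle, next to the dermal papilla, proliferates under WNT and Sonic hedgehog signals and grows down into the dermis. Matrix cells of the new bulb then build the inner root sheath, a sleeve of keratins and trichohyalin that moulds the fibre, and the hair shaft with its cysteine-rich keratins and keratin-associated proteins, while pigment cells load it with melanin. Pulling the hair out of resting follicles starts anagen synchronously and injures the skin at the same time.

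Signals were MAS 5.0 intensity values without a unit, floored at 34.6 and log2-transformed, and a model of all 33 arrays was fitted with limma. Calls had a Benjamini-Hochberg adjusted p under 0.05 over 26988 probe sets. Genes were represented by 1 probe set each, 12867 in all. Array medians lay between 111.2 and 135.5, the share of kept probe sets under the floor between 1.15% and 3.73%, and the correlation of replicates of a time point between 0.952 and 0.979. No sex-linked gene of 8 passed the test of the difference. Time points of the natural cycle mixed both sexes, which makes the standard error of genes that mark sex large. It was 3.77 for Xist, with a difference of 3.20, and 3.09 for Eif2s3y, with a difference of -2.01. The test therefore cannot decide whether sex entered the differences. Below, ± after a log2 value is its standard error.

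The changes of the cycles were related but far from alike. Across 26988 probe sets the natural and the depilation change, which share no array, correlated with r = 0.559 (probe sets are not independent), and 62.5% had the same sign. The difference was called in 4925 probe sets (18.2%), 2066 higher (7.66%) and 2859 lower (10.6%) in the natural cycle. The natural change was called in 11485 probe sets (42.6%), with 5370 up (19.9%) and 6115 down (22.7%), and the depilation change in 7510 (27.8%), with 3886 up (14.4%) and 3624 down (13.4%). By gene it was called in 2528 of 12867 (19.6%), 795 higher (6.18%) and 1733 lower (13.5%). The natural change itself was called in 5838 genes (45.4%, with 2073 or 16.1% up and 3765 or 29.3% down) and the depilation change in 4147 (32.2%, with 2112 or 16.4% up and 2035 or 15.8% down). The count depended on D3 replicate 1, without which it was 1954 probe sets, while without D3 replicate 2 it was 4778. With each array centred on its median the called differences split into 1227 higher and 4145 lower and the median difference was -0.20, against -0.01 as deposited. With female mice alone, which left 1 array of P23 and P25, 2601 were called, 1577 higher and 1024 lower.

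Changes called in 1 cycle only outnumbered those called in opposite directions, which had to pass the tests of both changes and of the difference. A change that was not called in the other cycle may still be there. A change of the natural cycle only, called there and in the difference but not in the depilation cycle, was found in 1201 genes, of which 308 rose (2.39%) and 893 fell (6.94%). A change of the depilation cycle only was found in 743 genes, of which 432 rose (3.36%) and 311 fell (2.42%). In 1071 of the 1201 (8.32% of all genes) and 696 of the 743 (5.41%) the change of the other cycle was also under 0.5 log2 in size. Opposite changes were called in 264 genes, with 214 falling in the natural and rising in the depilation cycle (1.66%) and 50 the other way (0.389%). Both changes were called in the same direction in 2096 genes, of which 217 also differed in size, 140 rising (1.09%) and 77 falling (0.598%). The other 1879 did not pass the test of the difference, 827 rising (6.43%) and 1052 falling (8.18%), and in 103 genes (0.8%) the difference passed with neither change called. The named genes that no longer passed without D3 replicate 1 were Dmbt1, Krtap31-1, Atp12a, Il1b, Cnn1, Slc16a3, Uqcrfs1, Aldoa, Rplp0, Birc5, Elovl4, Ccne1, Cd7 and Cpz, and without D3 replicate 2 they were Sprr1b, Krtap31-1, Atp12a, Lce3c, Prc1 and Birc5.

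**Figure D1:**
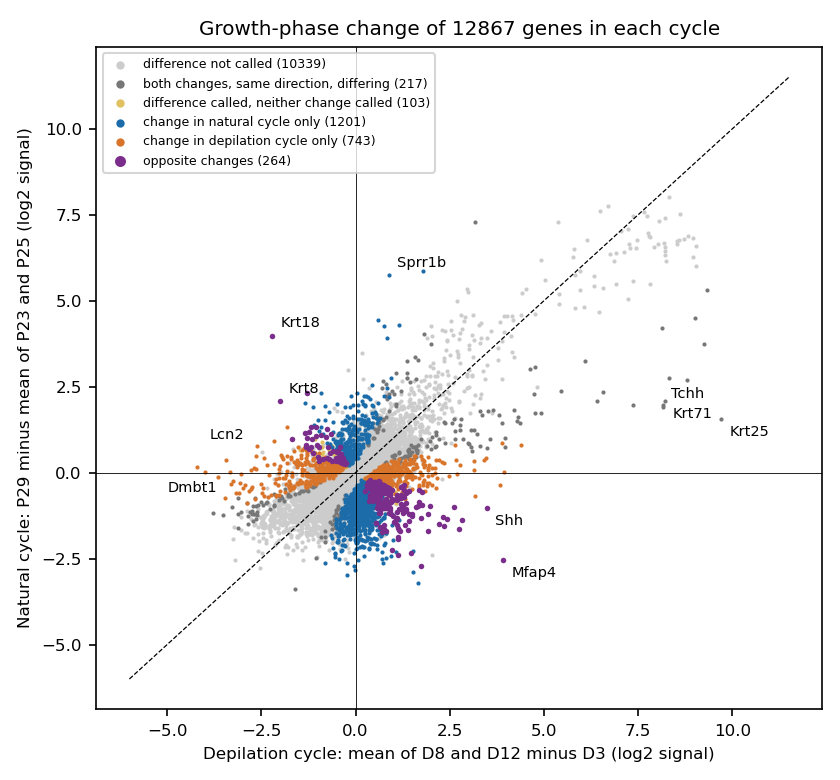
Growth-phase change of each of 12867 genes in the natural cycle (vertical axis, log2 signal) against the depilation cycle (horizontal axis, log2 signal), coloured by class, with the line of equal changes dashed. The inner root sheath genes Krt25, Krt71 and Tchh lie far right of the line, Shh and Mfap4 lie below zero on the natural axis only, and Krt18 and Krt8 rise in the natural and fall in the depilation cycle.

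The late levels of the cycles were closer than the early ones among the called probe sets. The median size of the gap between P29 and the mean of D8 and D12 was 0.31 log2 among the 4925 called and 0.31 among all 26988. The gap between the mean of P23 and P25 and D3 had a median size of 0.94 among the called and 0.48 among all. It was the larger of the pair in 81.4% of the called and 64.6% of all probe sets, a description only, since the gaps and the difference come from the same arrays. Of the 48 named genes with a lower change in the natural cycle, both D3 arrays lay below all 11 other arrays in 34 and all 4 P23 and P25 arrays above all others in 21. Of the 27 with a higher change, both D3 arrays lay above all others in 18 and all P23 and P25 arrays below all others in 7. The P29 and the D8 and D12 arrays overlapped in 35 of the 48 and 22 of the 27. The named genes were chosen by this same difference, so such positions follow in part from the choice. They were not counted over all genes. D3 and P23 with P25 are early anagen in the design text, and whether the follicles stood at the same point within it was not tested.

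Inner root sheath genes made up 5 of the 8 named genes with the most negative differences. They rose in both cycles, with the smaller rise in the natural one, and P23 and P25 skin held them at high levels while D3 skin was near the floor. Of 21 measured genes of the inner root sheath and companion layer, 19 rose in the natural and 18 in the depilation cycle, and 8 had a lower change in the natural cycle (38.1%, against 13.5% of all genes called lower). The median change was 2.57 in the natural and 5.82 in the depilation cycle, with a median difference of -1.02, against -0.11 over all genes. Besides Krt25, Krt27, Krt28, Krt71 and Tchh, described next, the 8 were Krt73, Krt75 and Padi3, a peptidyl arginine deiminase.

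The promoters of 4 keratin genes of this layer are given with those of Krt8 and Krt18, the keratin genes at the other end of the difference. Each sequence is from RefSeq (GRCm38.p6) and runs 5′ to 3′ on the strand of the gene, from 250 bases before to 50 after the start. The regions are chr11:99322902-99323201 (minus strand) for Krt25, chr11:99351069-99351368 (minus) for Krt27, chr11:99374854-99375153 (minus) for Krt28, chr15:101743048-101743347 (minus) for Krt71, chr15:102004293-102004592 (minus) for Krt8 and chr15:102027966-102028265 (plus) for Krt18. Capitals mark matches to TATAAA, CTTTGNAG or TGANTCA on either strand, the letters of a TATA box, of a site of the LEF1 type and of a site of the AP-1 type.
Krt25: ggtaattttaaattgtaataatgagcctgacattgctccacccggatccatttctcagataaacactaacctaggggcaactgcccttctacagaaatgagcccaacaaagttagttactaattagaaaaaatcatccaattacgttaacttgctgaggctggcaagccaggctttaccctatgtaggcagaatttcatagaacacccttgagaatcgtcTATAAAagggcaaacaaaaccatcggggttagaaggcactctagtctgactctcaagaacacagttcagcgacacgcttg
Krt27: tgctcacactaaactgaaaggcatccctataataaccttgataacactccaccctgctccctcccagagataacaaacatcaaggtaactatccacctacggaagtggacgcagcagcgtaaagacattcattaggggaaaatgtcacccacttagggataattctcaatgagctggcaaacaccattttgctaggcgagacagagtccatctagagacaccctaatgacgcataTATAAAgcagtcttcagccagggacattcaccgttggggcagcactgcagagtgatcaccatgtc
Krt28: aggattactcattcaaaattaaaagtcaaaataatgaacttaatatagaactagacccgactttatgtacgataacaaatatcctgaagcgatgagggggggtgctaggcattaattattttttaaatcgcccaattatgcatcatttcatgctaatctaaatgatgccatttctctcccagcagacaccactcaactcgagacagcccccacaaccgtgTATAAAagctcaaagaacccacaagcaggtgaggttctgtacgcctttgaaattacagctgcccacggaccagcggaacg
Krt71: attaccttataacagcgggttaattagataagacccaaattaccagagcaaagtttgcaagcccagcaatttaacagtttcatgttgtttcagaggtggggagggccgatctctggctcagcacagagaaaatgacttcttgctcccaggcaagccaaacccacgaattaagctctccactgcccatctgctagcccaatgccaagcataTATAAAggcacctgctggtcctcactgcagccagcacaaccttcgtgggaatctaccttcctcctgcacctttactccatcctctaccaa
Krt8: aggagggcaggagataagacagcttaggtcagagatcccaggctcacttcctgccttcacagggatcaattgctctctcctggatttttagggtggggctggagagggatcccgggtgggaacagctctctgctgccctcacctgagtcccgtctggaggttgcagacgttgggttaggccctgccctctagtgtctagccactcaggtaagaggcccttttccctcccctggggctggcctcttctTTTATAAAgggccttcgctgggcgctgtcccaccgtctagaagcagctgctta
Krt18: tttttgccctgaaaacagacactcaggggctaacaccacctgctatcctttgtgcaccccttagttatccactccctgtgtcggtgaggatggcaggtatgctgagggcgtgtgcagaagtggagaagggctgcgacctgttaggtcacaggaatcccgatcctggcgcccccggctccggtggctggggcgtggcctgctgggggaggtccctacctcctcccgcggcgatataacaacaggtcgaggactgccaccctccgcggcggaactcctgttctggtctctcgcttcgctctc
TATAAA was found in the 4 inner root sheath promoters, beginning 30 bases before the start in Krt25 and Krt28, 15 in Krt27 and 40 in Krt71. Krt8 held 2 overlapping matches, TATAAA and its reverse complement, close to the start, and Krt18 held none. CTTTGNAG and TGANTCA were in none of the 6 windows. Of 32851 promoters of this length 13.6% held TATAAA, 6.33% CTTTGNAG and 7.81% TGANTCA. Among the inner root sheath list 9 of 17 genes with a promoter in the table held TATAAA (52.9%), as did 17 of 22 of the hair shaft list (77.3%), against 9.93% of the 10343 tested genes with one, a description of the letters and not of use.

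Krt25, a type I keratin of the inner root sheath, had the largest difference of any named gene. Its signals were 39993, 37040 and 39059 at P29, against 9669, 15859, 8813 and 21804 at P23 and P25. They were 25715, 25404, 34006 and 31698 at D8 and D12, against 34.9 and 33.6 at D3. The D3 pair stood at the floor, far under every other array, and all P29 arrays were above all P23 and P25 arrays. The natural change of 1.56 and the depilation change of 9.70 differed by -8.14 ± 0.55 (adjusted p = 1.9e-08). Since the D3 signals were at the floor, the size depended on it and on the days chosen, between -8.54 and -6.62 over the alternatives, and the 2 D5 arrays already had 17824 and 21437.

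Krt71, a type II keratin of the same sheath, had 37220, 36266 and 37124 at P29, against 6138, 11339, 5151 and 16055 at P23 and P25. Its D8 and D12 signals were 19558, 16326, 28544 and 27451, against 81.8 and 71.0 at D3. The groups did not overlap in either cycle, and the difference was -6.12 ± 0.61 (adjusted p = 1.71e-06). Krt28 differed by -6.19 ± 0.48, Krt27 by -6.11 ± 0.68 and Tchh, which encodes trichohyalin, by -6.24 ± 0.60. Tchh had 58.7 and 79.5 at D3 and between 2720 and 22982 on the other 11 arrays. All 5 genes rose in both cycles.

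**Figure D2:**
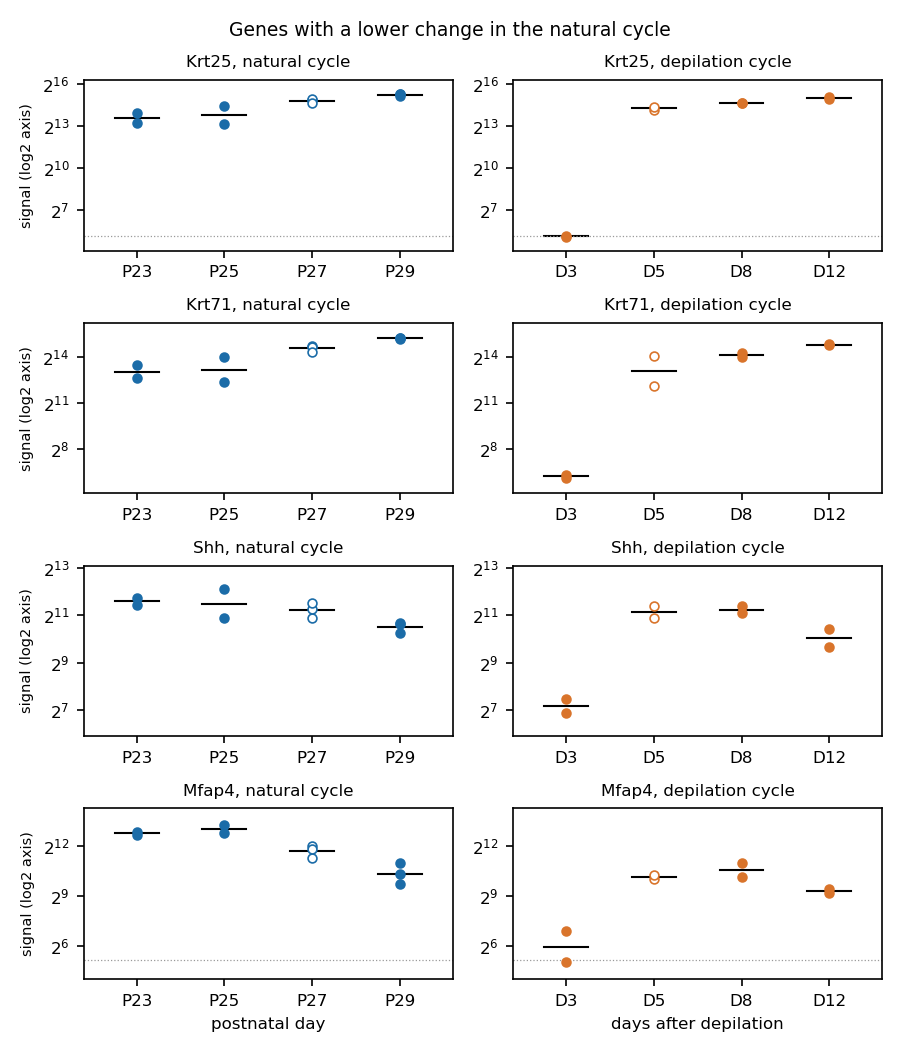
Signals of Krt25, Krt71, Shh and Mfap4 on each array (log2 axis), by postnatal day in the natural cycle (left) and by day after depilation (right), with filled points for the days compared, open points for P27 and D5, bars for geometric means and a dotted line at the floor of 34.6 where it is in range. The 2 D3 arrays lie below all others in each gene, and Shh and Mfap4 go down between P25 and P29.

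Hair shaft genes rose in both cycles, and the difference passed in few of them. All 28 measured hair keratins and associated genes rose in the natural and in the depilation cycle, with median changes of 6.29 and 7.57. The difference was called in 4, all lower, which are Krt35, Lrrc15, S100a3 and Krtap8-1, and the median difference was -0.82 (14.3% called, against 13.5% of all genes called lower). With P25 as the only early day 9 hair shaft genes had a lower change. Krt35, a type I keratin of the early hair cortex and cuticle, had 17335, 15199 and 16678 at P29, against 1643, 3514, 1499 and 4134 at P23 and P25. It had 12059, 12065, 15238 and 14396 at D8 and D12, against 51.3 and 15.8 at D3, and differed by -5.57 ± 0.47 (adjusted p = 2.15e-07). Lrrc15, a leucine-rich repeat membrane protein, differed by -4.20 ± 0.56, and Prr9, a proline-rich protein outside the list, by -5.52 ± 0.75.

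Krtap31-1, a keratin-associated protein gene outside the list, went the other way. It had 14432, 8230 and 9550 at P29, against 5.8, 63.0, 92.0 and 100.9 at P23 and P25, and 170.0, 47.5, 1989 and 3968 at D8 and D12, against 64.2 and 49.3 at D3. D8 skin lay at the level of D3 skin. The difference of 4.12 ± 1.30 (adjusted p = 0.0312) was lost when any of 7 of the 13 arrays was left out.

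Of the transcription factors of the growing follicle about as many passed with a lower change as did not pass. Of 25 measured, 12 rose and 5 fell in the natural cycle, 19 rose and 0 fell after depilation, and the difference was higher in 1 and lower in 12 (52.0% called, against 19.6% of all genes). Dlx2, a distal-less homeobox factor, had 964, 993 and 761 at P29, against 771, 1051, 664 and 1136 at P23 and P25. It had 783, 802, 965 and 622 at D8 and D12, against 52.2 and 49.9 at D3. The natural groups overlapped and the D3 pair stood apart, with a natural change of 0.03 and a difference of -3.92 ± 0.37 (adjusted p = 1.13e-06). Mycn, a MYC family factor, rose in the depilation cycle only as well, with a natural change of -0.35 and a difference of -4.17 ± 0.36.

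Lhx2, a LIM homeobox factor of hair germ and bulge cells, changed in opposite directions. Its signals were 1715, 1859 and 1507 at P29, against 3733, 3825, 3534 and 4385 at P23 and P25. After depilation they were 2139, 2230, 1437 and 1966 at D8 and D12, against 550 and 464 at D3. No groups of a cycle overlapped, and the natural fall of 1.19 and the depilation rise of 1.92 differed by -3.11 ± 0.24 (adjusted p = 6.83e-08). The 1 factor with a higher change, Foxq1, chosen here after its values were seen, differed by 1.84 ± 0.41 and rose in both cycles.

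Some pigment genes rose less in the natural cycle. Of 18 measured, 11 rose and 1 fell in the natural and 15 rose in the depilation cycle, and 7 had a lower change (38.9%, against 13.5% of all genes). The pigment count was 4 without P23 replicate 2, P29 replicate 3, D3 replicate 1 or D12 replicate 1, each left out alone, and 2 with only female mice. Mlana, a protein of the melanosome, had 2803, 2786 and 2569 at P29, against 449, 941, 407 and 988 at P23 and P25. It had 3480, 3916, 4262 and 1281 at D8 and D12, against 13.8 and 13.9 at D3, with a difference of -4.33 ± 0.83 (adjusted p = 0.00135). Dct, which encodes dopachrome tautomerase, rose in the depilation cycle only (difference -3.01 ± 0.71). D12 replicate 2 was low in both genes, with 1281 for Mlana and 3195 for Dct. In whole skin, fewer cells of a type and less RNA per cell cannot be told apart, here and below.

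Hedgehog signalling fell in the natural and rose in the depilation cycle. Of 15 measured genes 10 fell and 1 rose in the natural cycle, 1 fell and 9 rose after depilation, and 12 had a lower change (80.0%, against 13.5% of all genes). With only female mice 6 of the hedgehog genes had a lower change. Among the 15, 6 were called in opposite directions: Shh, Ptch1, Gli1, Gli2, Hhip and Kif7. The median change was -0.99 in the natural and 1.33 in the depilation cycle. Both D3 arrays had the lowest mean level of the list, 8.39 and 8.43 on the log2 scale, against 9.08 to 10.10 on the other 11.

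Shh, the ligand, had 1590, 1626 and 1205 at P29, against 2760, 3435, 1870 and 4406 at P23 and P25. It had 2181, 2671, 1385 and 817 at D8 and D12, against 174.5 and 118.4 at D3. No groups of a cycle overlapped, P29 lay within the range of D8 and D12, and the difference was -4.50 ± 0.52 (adjusted p = 1.03e-05). Ptch1, the receptor and itself a target of the pathway, had 3102, 3464 and 3532 at P29, against 7753, 8010, 6910 and 9747 at P23 and P25. Its D8 and D12 signals were 4560, 4668, 3467 and 2434, against 1274 and 1298 at D3, and it differed by -2.77 ± 0.31. Gli2, an activating transcription factor of the pathway, differed by -2.60 ± 0.20 (adjusted p = 6.83e-08), with 1017, 859 and 828 at P29 against 1604 to 1966 at P23 and P25, and 991 to 1137 at D8 and D12 against 319 and 366 at D3.

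WNT genes with a called difference mostly had a lower change in the natural cycle. Of 37 measured, 3 had a higher change in the natural cycle, the ligands Wnt3a, Wnt4 and Wnt10a, and 19 a lower one, among them the ligands Wnt5a and Wnt11, receptors, R-spondins and inhibitors (59.5% called, against 19.6% of all genes). Without D3 replicate 1 the WNT list had 2 higher and 12 lower calls, and with only female mice 2 and 10. The frizzled receptor Fzd1 rose in the depilation cycle only, with 4834, 4631 and 5716 at P29 against 4086, 4995, 4138 and 5427 at P23 and P25, a difference of -1.79 ± 0.21 (adjusted p = 1.3e-05). After depilation it had 4385, 4195, 5287 and 5836 at D8 and D12, against 1141 and 1463 at D3. Fzd2 fell in the natural cycle, rose after depilation and differed by -1.93 ± 0.24. Lgr5, the R-spondin receptor of follicle stem cells, rose after depilation only and differed by -2.25 ± 0.36, with 367 and 366 at D3 and between 681 and 1478 elsewhere.

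Of 34 BMP and TGF-beta genes 10 had a lower change in the natural cycle (29.4%, against 13.5% of all genes), 5 without D3 replicate 1 and 2 with only female mice. Id4, an inhibitor of differentiation that responds to BMP, rose after depilation only (difference -2.57 ± 0.45), and Ltbp1, which binds latent TGF-beta, fell in the natural cycle only (-1.45 ± 0.31). Of 32 genes of the FGF, EGF and IGF families and a few other growth factors, PDGF among them, 1 had a higher and 7 a lower change (25.0%, against 19.6% of all genes). Pdgfra, the PDGF receptor of fibroblasts, fell in the natural cycle only and differed by -1.60 ± 0.27, and Igfbp4, an IGF-binding protein, changed in opposite directions and differed by -1.04 ± 0.19. Of 25 bulge and hair germ genes 2 had a higher and 9 a lower change (44.0% called, against 19.6% of all genes).

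Dermal papilla genes and the dermal matrix fell in the natural cycle. Of 26 papilla genes 13 fell and 4 rose in the natural cycle, 1 fell and 13 rose after depilation, and 13 had a lower change (50.0%, against 13.5% of all genes), 8 without D3 replicate 1. Vcan, the proteoglycan versican of the papilla, had 893, 1123 and 883 at P29, against 3025, 2813, 2461 and 4431 at P23 and P25. It had 1573, 1577, 607 and 567 at D8 and D12, against 188.3 and 337.8 at D3, with opposite changes and a difference of -3.62 ± 0.47 (adjusted p = 3.54e-05). Tbx18, a T-box factor of the papilla lineage, differed by -3.22 ± 0.36 and had 74.9 and 92.2 at D3, at the level of P29, which had 74.2, 96.5 and 73.6.

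Dermal fibroblast and matrix genes fell in the natural cycle and mostly did not pass after depilation. Of 36 measured, 31 fell and 0 rose in the natural cycle, 3 fell and 8 rose after depilation, and 26 had a lower change (72.2%, against 13.5% of all genes). Natural-only falls numbered 17 and opposite changes 7. The median change was -1.39 in the natural and 0.09 in the depilation cycle, with a median difference of -1.52. The mean level of the list was 11.05 to 11.51 at P29, against 12.43 to 12.84 at P23 and P25, and 10.91 to 11.54 at D8 and D12, against 10.84 and 11.21 at D3. Without D3 replicate 1 the lower calls numbered 16.

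Mfap4, a microfibril-associated protein of elastic fibres, had the largest difference among the named genes with opposite changes. Its signals were 2054, 1255 and 844 at P29, against 6505, 7297, 9818 and 6929 at P23 and P25. They were 1976, 1105, 689 and 578 at D8 and D12, against 31.8 and 119.0 at D3. P29 overlapped with D8 and D12, whereas the early groups lay far apart, and the difference was -6.45 ± 0.66 (adjusted p = 2.3e-06). Col14a1, a fibril-associated collagen, had 1569, 1489 and 1267 at P29, against 4667, 4413, 7376 and 5944 at P23 and P25, and 2062, 1804, 1504 and 1458 at D8 and D12, against 570 and 1059 at D3, a difference of -3.05 ± 0.34. Fbln1, a fibulin of the matrix, differed by -1.72 ± 0.18 and Fbn2, a fibrillin, by -4.45 ± 0.55, both with opposite changes. Of the collagen and proteoglycan markers, Col1a1 differed by -1.57 ± 0.50 (adjusted p = 0.0324), and Col1a2 by -0.57 ± 0.28 (0.16) and Dcn by -0.75 ± 0.27 (0.0528) did not pass.

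Proteases of the matrix had lower changes as well. Of 22 metalloproteinases and inhibitors 16 fell in the natural cycle, and 2 had a higher and 10 a lower change (54.5%, against 19.6% of all genes). Adam12, a membrane metalloproteinase, and Plat, tissue plasminogen activator, changed in opposite directions and differed by -2.05 ± 0.32 and -1.89 ± 0.28. Cpz, a carboxypeptidase of the matrix, had 1242, 462 and 286 at P29, against 2230, 2633, 3482 and 2515 at P23 and P25, and 225, 178, 117 and 138 at D8 and D12, against 11.4 and 88.1 at D3. Its difference of -3.82 ± 1.28 (adjusted p = 0.0422) was lost without any of 10 of the 13 arrays.

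Proliferation genes fell in the natural cycle. Of 45 mitosis genes 32 fell and 0 rose in the natural cycle, 2 fell and 0 rose after depilation, and 8 had a lower change (17.8%, against 13.5% of all genes). Of 36 genes of DNA replication and nucleotide supply 25 fell and 1 rose in the natural cycle, 0 fell and 2 rose after depilation, and 16 had a lower and 1, Orc1, a higher change (47.2%, against 19.6% of all genes). Natural-only falls were 7 and 14 in these lists. Cdc6, which loads the replicative helicase, had 234, 268 and 192 at P29, against 409, 524, 469 and 485 at P23 and P25, and 292, 327, 218 and 129 at D8 and D12, against 137.0 and 150.1 at D3 (difference -1.70 ± 0.39, adjusted p = 0.00514). Ccne1, cyclin E1, rose after depilation only (-1.61 ± 0.34). Birc5, which encodes survivin, and the spindle midzone protein Prc1 fell in the natural cycle only, by 1.12 and 1.02. Both counts depended on the arrays: without D3 replicate 1 there were 2 lower calls in each list, and with D12 as the only late day after depilation there were 2 in DNA replication and none in mitosis, whereas with D8 as the only late day there were 26 and 22. Leaving out any other array but P23 replicate 1, P25 replicate 1 or D12 replicate 2 also cut the mitosis count by over 1.5 times. Over the omissions of 1 array the lower calls of the mitosis list lay between 0 and 9. With P23 as the only early day there were 3, and with P25 there were 2.

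**Figure D3:**
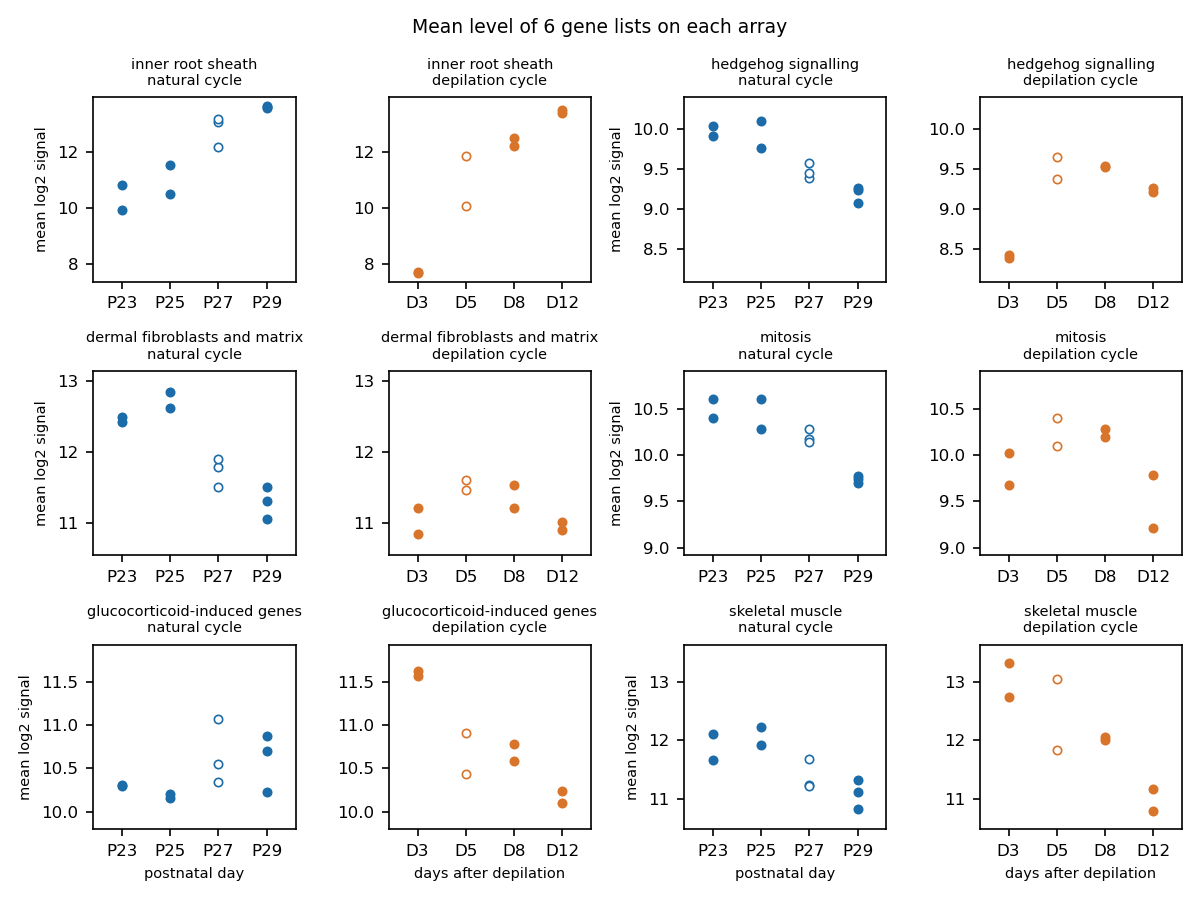
Mean log2 signal of 6 gene lists on each array, by postnatal day in the natural cycle (left panel of each pair) and by day after depilation (right panel), filled for the days compared. Hedgehog and inner root sheath levels are lowest at D3, fibroblast levels highest at P23 and P25, and glucocorticoid-induced levels highest at D3. Muscle levels are highest on D3 replicate 1, with D5 replicate 1 (13.04) above D3 replicate 2 (12.75).

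Genes of lipid synthesis mostly had a lower change in the natural cycle where they passed. Of 26 genes of cholesterol and fatty acid synthesis 4 rose and 10 fell in the natural cycle, 12 rose and 0 fell after depilation, and 11 had a lower change (42.3%, against 13.5% of all genes). The lipid count was 6 without D3 replicate 1, 7 without P29 replicate 3 and 2 with only female mice. Scd2, a stearoyl-CoA desaturase, had 11555, 9721 and 6654 at P29, against 9528, 9718, 8158 and 10518 at P23 and P25, and 7951, 7768, 10854 and 8611 at D8 and D12, against 2197 and 2045 at D3. It rose after depilation only, with a difference of -2.10 ± 0.30 (adjusted p = 8e-05). Fads1, a fatty acid desaturase, changed in opposite directions (-1.59 ± 0.21).

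Keratins of simple epithelia were among the genes with the most positive differences. Krt18, a type I keratin of simple epithelia, had 461, 567 and 731 at P29, against 12.7, 16.5, 9.9 and 42.7 at P23 and P25. It had 492, 600, 558 and 526 at D8 and D12, against 4526 and 1382 at D3. The late groups overlapped, P23 and P25 were the lowest and D3 the highest, and opposite changes of 3.98 and -2.20 gave a difference of 6.19 ± 0.86 (adjusted p = 6.95e-05). Krt8, its type II partner, had 345, 415 and 393 at P29, against 92.0, 77.9, 91.8 and 102.1 at P23 and P25, and 437, 325, 292 and 316 at D8 and D12, against 2609 and 705 at D3, with a difference of 4.08 ± 0.85. The 2 D3 arrays were far apart in both genes. The basal keratin Krt14 had a difference of 0.99 ± 0.19 (adjusted p = 0.00153), and Krt5 (0.55 ± 0.20) and the suprabasal Krt1, Krt10 and Lor did not pass.

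Of 34 genes of wounded and stressed keratinocytes 14 rose and 6 fell in the natural cycle, and 5 rose and 8 fell after depilation. The difference was higher in 9 and lower in 1, Tnc (29.4% called, against 19.6% of all genes). Krt18 and Krt8, described above, were among the 9. With only female mice 4 of the wound genes had a higher change. Sprr1b, a cornified envelope precursor, rose in the natural cycle only. It had 3733, 3537 and 3195 at P29, against 162.1, 40.9, 29.4 and 76.9 at P23 and P25, and 2872, 983, 3036 and 1567 at D8 and D12, against 528 and 2018 at D3 (difference 4.86 ± 1.40, adjusted p = 0.0207). The groups after depilation overlapped. Of 39 genes of the cornified epidermis 2 had a higher and 3 a lower change (12.8% called, against 19.6% of all genes). The 2 were Lce3c (3.50 ± 1.05), a late cornified envelope gene, and Abca12 (1.95 ± 0.45), a lipid transporter. Among the 3 was Elovl4 (-1.17 ± 0.34), a fatty acid elongase of the skin barrier. No gene of the cornified epidermis list had a lower change without D3 replicate 1, and without D3 replicate 2 there were 5.

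**Figure D4:**
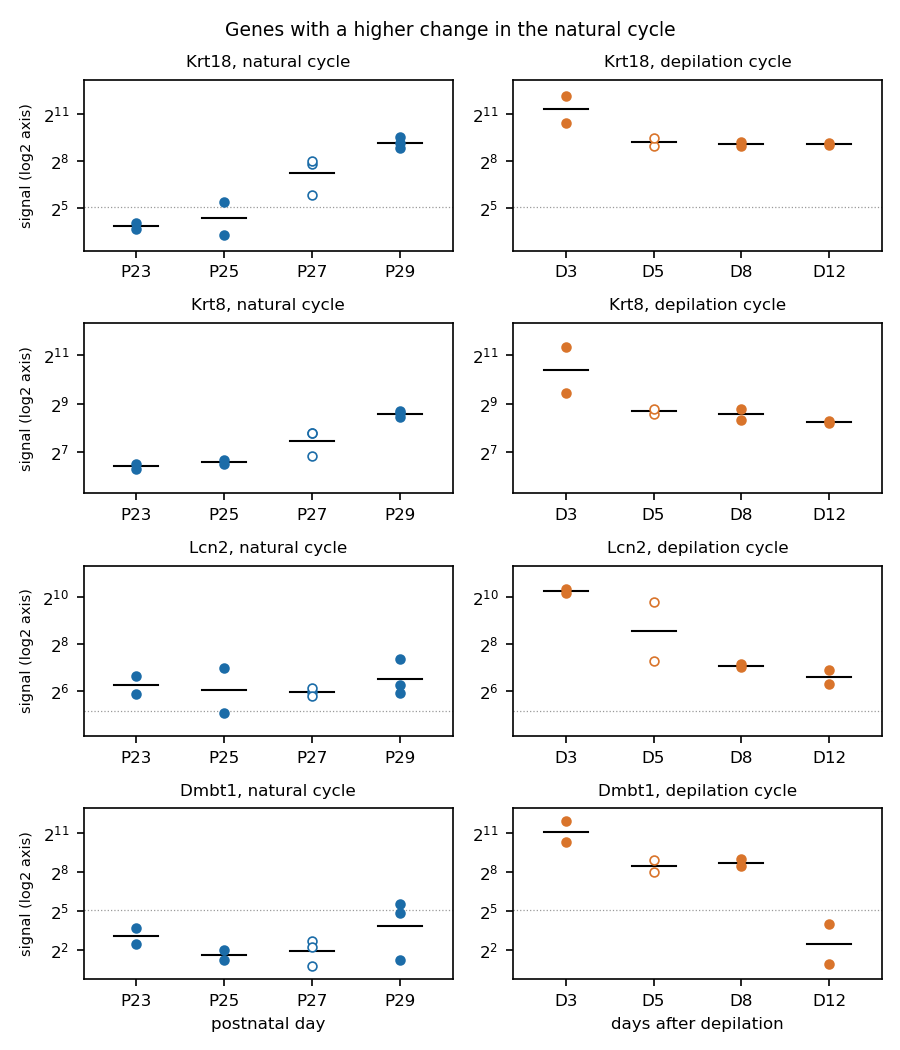
Signals of Krt18, Krt8, Lcn2 and Dmbt1 on each array (log2 axis), drawn as in the plot of Krt25, Krt71, Shh and Mfap4. D3 arrays are the highest in each gene, and Krt18 and Krt8 go up from P25 to P29 while Lcn2 does not pass the test there.

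The other genes with large positive differences were called as falling after depilation only or as rising in the natural cycle only. Dmbt1, a secreted scavenger receptor of mucosal epithelia, had 47.4, 2.3 and 28.9 at P29, against 5.4, 12.9, 2.3 and 4.0 at P23 and P25, near or under the floor. It had 356, 510, 1.9 and 16.1 at D8 and D12, against 3868 and 1302 at D3 (difference 4.36 ± 1.05, adjusted p = 0.0072). Ankrd2, a stretch-responsive ankyrin protein of striated muscle, had 290, 181 and 345 at P29, against 290, 152, 419 and 248 at P23 and P25, and 409, 340, 148 and 211 at D8 and D12, against 6295 and 2660 at D3 (4.01 ± 0.67). The natural groups of Ankrd2 overlapped and the D3 pair stood alone. Atp12a, a proton and potassium pump, was called as a rise in the natural cycle only. It had 3776, 6723 and 5796 at P29, against 117, 98.7, 118 and 48.7 at P23 and P25. After depilation it had 250 and 232 at D8 and 3308 and 3799 at D12, against 187 and 385 at D3. Both D12 arrays of Atp12a lay above D3, and the depilation change of 1.78 was not called (limma, adjusted p = 0.226). Its difference of 4.09 ± 1.42 (adjusted p = 0.0485) was lost without any of 12 of the 13 arrays. Chac1, which degrades glutathione, was also called as a rise in the natural cycle only (3.84 ± 0.63). It had 4444, 4579 and 5956 at P29, against 219, 142, 195 and 448 at P23 and P25. After depilation it had 1427 and 865 at D8 and 4619 and 4023 at D12, against 1735 and 1201 at D3. The D12 arrays thus lay above D3, and the change of the mean of D8 and D12 was not called.

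The neutrophil genes with a called difference fell after depilation only. Of 7 measured neutrophil genes 3 had a higher change in the natural cycle, Lcn2, Ltf and Il1b (42.9%, against 6.18% of all genes), and 1 without D3 replicate 1. The other 11 of the 18 genes in the list were not measured, Elane, Mpo, Ngp and Ly6g among them. Lcn2, the iron-scavenging lipocalin of neutrophils and injured epithelia, had 59.6, 163.1 and 76.7 at P29, against 98.9, 57.6, 124.9 and 33.2 at P23 and P25, and 141, 127, 77.8 and 118 at D8 and D12, against 1300 and 1143 at D3. The natural groups overlapped, and the difference was 3.79 ± 0.81 (adjusted p = 0.00307). Of 24 chemokines and cytokines 3 had a higher and 1 a lower change (16.7%, against 19.6% of all genes). Cxcl2, a neutrophil attractant, had 838 and 228 at D3 and at most 45.9 elsewhere (3.52 ± 0.54), and Il1b, interleukin 1 beta, differed by 1.98 ± 0.53. The summed signal of the neutrophil list was 1588 to 3025 at P29, against 715 to 1221 at P23 and P25, and 1126 to 2842 at D8 and D12, against 3219 and 4519 at D3. On the D5 arrays, outside the comparison, it was 680 and 20173, the second above both D3 arrays.

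Most macrophage and mast cell genes fell in the natural cycle. Of 27 macrophage genes 16 fell and 1 rose in the natural cycle and 0 changed after depilation. Only Mrc1, Lyz1 and Lyz2 had a lower change (11.1%, against 13.5% of all genes). The lysozyme genes Lyz1 and Lyz2 are near-identical copies. D3 replicate 1 and 2 stood apart in this list, with mean levels of 9.08 and 10.43. Without D3 replicate 1 none of the 3 calls was left and the median difference was 0.01, against -0.72 with it, whereas without D3 replicate 2 there were 8 lower calls. Of 11 mast cell genes 8 fell in the natural cycle and 4 had a lower change (36.4%, against 13.5% of all genes). Mcpt4, a mast cell chymase, had 661, 558 and 655 at P29, against 1954, 1654, 2418 and 1465 at P23 and P25, and 626, 445, 610 and 600 at D8 and D12, against 17.3 and 356.5 at D3 (-3.91 ± 0.71, adjusted p = 0.000948). Cpa3, the mast cell carboxypeptidase, differed by -2.89 ± 0.55. The 2 D3 arrays again differed, with 147 and 593 for Cpa3. Cd7, a lymphocyte surface protein, fell in the natural cycle only (-3.40 ± 0.78). Of 26 interferon response genes 10 fell in the natural and 4 in the depilation cycle, with a median difference of -0.10.

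Glucocorticoid-induced genes that passed had a higher change in the natural cycle. Of 19 measured, 11 had a higher change in the natural cycle (57.9%, against 6.18% of all genes called higher), 6 rose and 0 fell in the natural cycle, and 1 rose and 9 fell after depilation. Without D3 replicate 1 the glucocorticoid list had 6 higher calls, and with D8 as the only late day 7. The median change was 0.47 in the natural and -1.18 in the depilation cycle. Cebpd, a C/EBP transcription factor of the acute phase, had 736, 1297 and 1250 at P29, against 697, 773, 689 and 606 at P23 and P25, and 899, 706, 637 and 686 at D8 and D12, against 2444 and 2043 at D3 (2.25 ± 0.43, adjusted p = 0.00142). Angptl4, which inhibits lipoprotein lipase, differed by 1.87 ± 0.40. Of 14 clock genes of the E-box and D-box type Per1, Per2 and Wee1 had a higher change (21.4%, against 6.18% of all genes). Of these, 1 was called without D3 replicate 1, and 7 of the 14 fell after depilation. All skins were collected within the same window of hours from noon. The hour of each array is not given in the sources used here, and its part was not tested.

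Of 26 immediate early genes 8 had a higher change and 1, Egr3, a lower one (34.6%, against 19.6% of all genes). The immediate early list had 3 higher calls without D3 replicate 2 or with P23 as the only early day, 4 without P29 replicate 2 and 5 without P23 replicate 1, D3 replicate 1 or D12 replicate 2. Ccn2, a matricellular growth factor that answers mechanical stress, had 1385, 2146 and 1797 at P29, against 806, 906, 803 and 733 at P23 and P25, and 1240, 1150, 1714 and 2082 at D8 and D12, against 2051 and 1798 at D3 (1.47 ± 0.27, adjusted p = 0.00107). Egr3, an early growth response factor, rose after depilation only (-1.51 ± 0.27), and its other probe set had the opposite sign. Of 30 heat shock and chaperone genes 6 had a higher change (20%, against 6.18% of all genes called higher). Among them were Cryab, the small heat shock protein of muscle and lens (1.94 ± 0.38), and Herpud1 of the endoplasmic reticulum stress response (1.14 ± 0.25). With median centring the heat shock list had 2 higher and 1 lower calls, and without P23 replicate 1, P29 replicate 3, D3 replicate 1, D8 replicate 1 or D12 replicate 1 it had 3 higher.

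Muscle and respiratory genes fell in the depilation cycle. Of 36 skeletal muscle genes 27 fell in the natural and 31 in the depilation cycle, and Tcap and Myot passed the test of the difference (5.56%, against 6.18% of all genes called higher), while with D12 as the only late day 11 muscle genes had a higher change and without D3 replicate 2 there were 4. The median changes of the muscle list were -1.13 and -1.61. The mean level of the muscle list was 10.83 to 11.33 at P29, against 11.67 to 12.23 at P23 and P25, and 10.79 to 12.06 at D8 and D12, against 13.32 and 12.75 at D3. The respiratory list described next had median changes of -0.14 in the natural and -0.62 in the depilation cycle. The glycolysis list had -0.26 and -0.45. The part of muscle in these lists was not tested. Of 32 respiratory chain genes 10 fell and 0 rose in the natural and 31 fell in the depilation cycle. A higher change was called in 10 (31.2%, against 6.18% of all genes), all through a fall after depilation only. Uqcrc1 and Uqcrfs1, subunits of complex III, differed by 0.72 ± 0.15 and 0.89 ± 0.21, and the respiratory count was 1 without D3 replicate 1, 16 without D3 replicate 2, 4 to 6 without P23 replicate 2, P25 replicate 2, P29 replicate 1, P29 replicate 3, D8 replicate 2 or D12 replicate 2, and 2 with quantile normalization or median centring.

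Of 26 glycolysis and hypoxia genes 7 had a higher and 1 a lower change (30.8% called, against 19.6% of all genes). Aldoa, muscle aldolase, fell after depilation only (0.89 ± 0.21), and Slc16a3, a lactate exporter, fell in both cycles and more after depilation (1.64 ± 0.42). Of 29 adipocyte genes 8 had a higher and 1 a lower change (31% called, against 19.6% of all genes). Plin4, a lipid droplet coat protein, had 2345, 1774 and 2428 at P29, against 3102, 1966, 2863 and 2534 at P23 and P25, and 1884, 1590, 1558 and 1608 at D8 and D12, against 6195 and 5155 at D3 (1.52 ± 0.32, adjusted p = 0.00304). Fabp4, the fatty acid carrier of adipocytes, changed in opposite directions (1.12 ± 0.17). Without D3 replicate 1 the adipocyte list had 2 higher and 3 lower calls and the glycolysis list 1 higher. Without P29 replicate 3 or D12 replicate 1 the adipocyte list had 5 higher calls, and without P23 replicate 2 or D12 replicate 1 the glycolysis list had 4.

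Ribosomal genes moved little. Of 30 measured, 14 rose in the natural cycle, and 10 had a higher and 1 a lower change (36.7% called, against 19.6% of all genes). The median difference was 0.26. Rplp0, a stalk protein of the large subunit, had 33035, 32018 and 32358 at P29, against 26627, 25186, 26807 and 32864 at P23 and P25, and a difference of 0.58 ± 0.14. Rpl8, a large subunit protein, differed by 0.55 ± 0.13. These depended on the scaling, since with quantile normalization the median difference of the list was -0.15 and 1 higher call was left, as without D3 replicate 1, while without P29 replicate 3 there were 4 and with only female mice none (none in the respiratory list either).

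Among the remaining cell types smooth muscle had the highest share of called differences (31.2%, against 19.6% of all genes). Over the omissions of 1 array this list had 0 to 2 higher and 1 to 3 lower calls. Of 16 smooth muscle and pericyte genes 2 had a higher and 3 a lower change, with Cnn1, calponin of smooth muscle, at 1.64 ± 0.41 and Itga8, an integrin of arrector and papilla cells, at -1.21 ± 0.26. Of 27 endothelial genes 13 fell in the natural and 11 in the depilation cycle, and 1 had a higher and 2 a lower change (11.1% called). Higher and lower changes numbered 1 and 2 of 19 for the sebaceous gland (15.8% called) and 1 and 1 of 16 for Schwann cells and nerve (12.5%). For red blood cells they numbered 1 and 0 of 5 (20%). They numbered 0 and 2 of 15 for T cells (13.3%) and 0 and 3 of 20 for antigen presentation (15%).

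Of the named genes outside the lists, most of the rest fell in the natural or rose in the depilation cycle only. Serpinb12, a serine protease inhibitor, fell in the natural cycle only, with 71.9, 67.7 and 54.7 at P29 against 690, 619, 692 and 417 at P23 and P25, and 624, 411, 210 and 325 at D8 and D12 against 75.6 and 177.6 at D3 (-4.85 ± 0.91, adjusted p = 0.00116). Hamp2, a hepcidin gene, also fell in the natural cycle only (-4.40 ± 1.04). It had 1378 to 3012 at P23 and P25 and at most 510 on the other arrays compared. On P27 replicate 3, outside the comparison, it had 1061. Rnase2b, a secreted ribonuclease, and Kif26a, an atypical kinesin, rose after depilation only (-3.86 ± 0.58 and -3.60 ± 0.69). Kif26a had 32.7 and 20.8 at D3, under the floor, and at least 447 on the other 11 arrays. The probe sets of Lce3c, Hamp2, Aldoa, Ccne1, Angptl4 and Prc1, and of the markers Krt14, Lor and Xist, can also bind other transcripts. Members of lists named without signals, such as Wnt3a or Per1, were chosen after their values were seen.

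**Figure D5:**
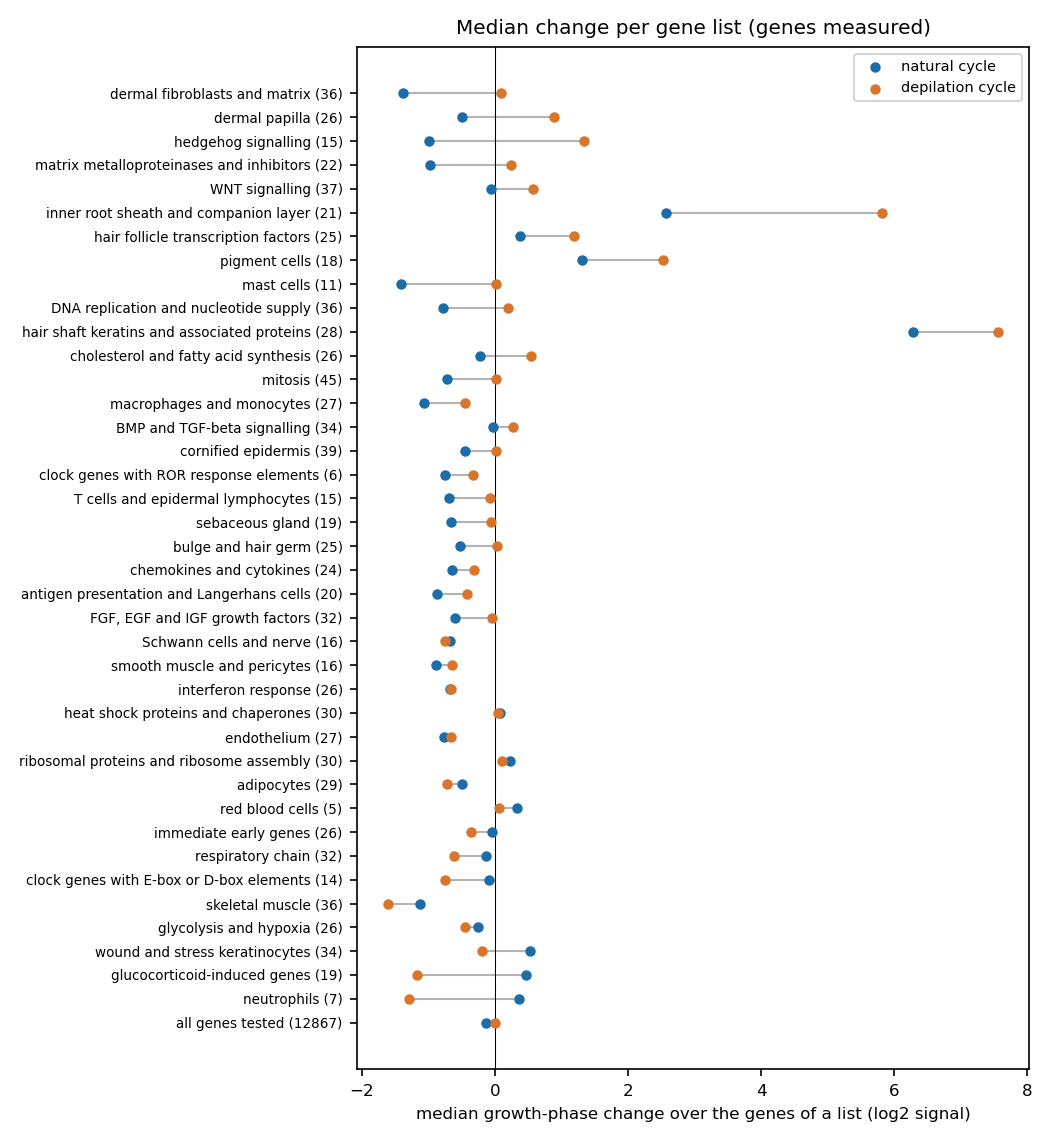
Median growth-phase change (log2 signal) over the genes of each list in the natural and the depilation cycle, with the number of genes measured, ordered by the median difference and with all genes tested at the bottom. The fibroblast list has medians of -1.39 and 0.09, the hedgehog list -0.99 and 1.33, the hair shaft list 6.29 and 7.57 and the glucocorticoid list 0.47 and -1.18 in the natural and the depilation cycle.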

How the data were processed

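Skin RNA of 1 mouse per array was measured on Affymetrix Mouse Genome 430 2.0 arrays. The authors deposited MAS 5.0 signal intensity values, scaled by array (2% trimmed means 496.8 to 498.4); the version and settings are not given in the sources used here. Values were floored at 34.6, their 25th percentile, and log2-transformed, and 26988 of 45037 probe sets above the array median on at least 3 arrays were kept. All 33 arrays were fitted with limma 3.58.1 (R 4.3.3; lmFit, contrasts.fit, eBayes), with 1 mean for each of 14 time points and 19 residual degrees of freedom, and p-values were adjusted by Benjamini-Hochberg over the kept probe sets. The script was tested on simulated data with few changed probe sets. It called 37 of 100 changes of 1 log2 and 74 of 100 of 2 log2, all with the right sign. A difference that was not called can thus be real. A change of 1 cycle only passed the test of the difference and of that cycle, not of the other. The platform annotation gave 1 symbol for 34945 probe sets, several for 932 and none for 9160, and each gene took its probe set with the highest mean. Of 75 named genes 29 had over 1 probe set, and in 6 (Egr3, Fads1, Fbln1, Id4, Mycn and Scd2) another had the other sign.

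Named genes passed the test of the difference with all arrays of a group above their medians: the 8 most positive and 8 most negative, the 4 largest of each class, and the 2 smallest p of each list with at least 4 called members. The contrast and gene lists were chosen with earlier results of these data known. Array intensities carry no read depth, so the number of arrays limits the precision. Alternatives were other floors, filters, scalings, days and probe sets, sex as a covariate, a replicate block, a plain t-test at the threshold of the methods' ANOVA and leaving out each array. Figures were drawn with matplotlib 3.10.9.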

Additional observations from a re-analysis of the deposited data

Results flagged for a closer look

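The change of the growth phase differed between the cycles, by limma's test of the difference itself, in each of the 75 named genes, which were selected for passing it. The log2 differences, natural minus depilation, were positive in 27 genes: Krt18 (6.19), Sprr1b (4.86), Dmbt1 (4.36), Krtap31-1 (4.12), Atp12a (4.09), Krt8 (4.08), Ankrd2 (4.01), Chac1 (3.84), Lcn2 (3.79), Cxcl2 (3.52), Lce3c (3.50), Cebpd (2.25), Il1b (1.98), Abca12 (1.95), Cryab (1.94), Angptl4 (1.87), Cnn1 (1.64), Slc16a3 (1.64), Plin4 (1.52), Ccn2 (1.47), Herpud1 (1.14), Fabp4 (1.12), Uqcrfs1 (0.89), Aldoa (0.89), Uqcrc1 (0.72), Rplp0 (0.58) and Rpl8 (0.55). They were negative in 48 genes: Krt25 (-8.14), Mfap4 (-6.45), Tchh (-6.24), Krt28 (-6.19), Krt71 (-6.12), Krt27 (-6.11), Krt35 (-5.57), Prr9 (-5.52), Serpinb12 (-4.85), Shh (-4.50), Fbn2 (-4.45), Hamp2 (-4.40), Mlana (-4.33), Lrrc15 (-4.20), Mycn (-4.17), Dlx2 (-3.92), Mcpt4 (-3.91), Rnase2b (-3.86), Cpz (-3.82), Vcan (-3.62), Kif26a (-3.60), Cd7 (-3.40), Tbx18 (-3.22), Lhx2 (-3.11), Col14a1 (-3.05), Dct (-3.01), Cpa3 (-2.89), Ptch1 (-2.77), Gli2 (-2.60), Id4 (-2.57), Lgr5 (-2.25), Scd2 (-2.10), Adam12 (-2.05), Fzd2 (-1.93), Plat (-1.89), Fzd1 (-1.79), Fbln1 (-1.72), Cdc6 (-1.70), Ccne1 (-1.61), Pdgfra (-1.60), Fads1 (-1.59), Egr3 (-1.51), Ltbp1 (-1.45), Itga8 (-1.21), Elovl4 (-1.17), Igfbp4 (-1.04), Birc5 (-1.02) and Prc1 (-0.74).

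Single arrays stood apart from the others of their group, by the gap to the nearest array over the range of the group, in 9 of 148 groups of 4 arrays, where chance gives about 7.4 at 1 in 20. P25 replicate 2 was the highest of P23 and P25 for Krt18 (42.7) and Kif26a (711.6), and P23 replicate 1 was the highest for Lce3c (37.0) and the lowest for Fbn2 (1193). The lowest of the same group was P25 replicate 1 for Fbln1 (1479) and P23 replicate 2 for Adam12 (773.6). Among D8 and D12, D8 replicate 1 was the highest for Plin4 (1884), D8 replicate 2 the lowest for Mcpt4 (445.1) and D12 replicate 2 the lowest for Mlana (1281).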

How the results depend on the processing

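Of the results of the 75 named genes under the alternatives, 2259 kept direction and call, 125 kept the direction without passing, and 1 turned: Rplp0 was -0.017 with quantile normalization. The difference was called in 4925 probe sets (8930 at an unadjusted p under 0.05). With the 13 arrays alone and 1 mean per group it was called in 2949, with 1560 natural-only, 866 depilation-only and 292 opposite changes. With 1 probe set per gene, which leaves fewer features, the counts were 2821 for the difference, 6075 for the natural and 4509 for the depilation change, 1294 natural-only, 840 depilation-only and 2285 in the same direction. P23 as the only early day gave 1579 natural-only changes. D8 as the only late day gave 4373 depilation changes and 1896 in the same direction, and D12 gave 3251 differences, 1310 natural-only and 275 opposite changes. Only female mice, an alternative chosen after seeing the data, gave 2601 differences (60.6% higher, against 41.9%), 6614 natural changes, 439 depilation-only, 196 opposite and 2083 in the same direction, with 27 named genes no longer passing. A plain t-test between the array groups, in place of the methods' ANOVA of transformed values, gave 6871 natural and 2632 depilation changes at the methods' threshold of 0.01, and after Benjamini-Hochberg adjustment 447 depilation changes. Leaving out each array in turn gave 1954 to 5062 differences, 8732 to 11632 natural and 3404 to 7768 depilation changes, 1178 to 2828 natural-only, 440 to 1583 depilation-only, 175 to 485 opposite and 2018 to 3831 in the same direction. All the lowest counts but that of the natural change (without P29 replicate 3, which also left 1518 natural-only changes) came without D3 replicate 1, where the lone D3 array is assumed to vary like the others, and 1836 of the 1954 were called with all arrays. With the replicate number as a block the difference was called in 4961 probe sets; deviations of samples with the same number correlated at -0.13 to 0.23, so the numbers do not pair the samples. Median centring gave 5372 differences, 22.8% higher. Atp12a lost its call in 12 of 13 omissions, Cpz in 10, Krtap31-1 in 7, Birc5 in 5 and Lce3c in 4. The causes were not tested. Signals near the floor of 34.6 limit the size of large changes, and 2 arrays at D3 limit the precision of every difference.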
